A study of Mus musculus with 14 samples.

Results

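The cholesterol biosynthesis genes were followed in hippocampal RNA of newborn mice with and without gasdermin D (GSDMD), a pore-forming protein of inflammatory cell death. The group was defined by 7 gene symbols, Hmgcs1, Sqle, Idi1, Insig1, Dhcr7, Fdps and Srebf2. They were chosen by name, with earlier results of these data known. All 7 were found among the 36118 genes of the count table and all 7 passed the filter on low counts, among 16637 genes tested. Poly(A)-selected RNA of the hippocampus was sequenced at postnatal day 15, with 1 library per mouse from 14 mice. WT-RA were 4 wild-type mice kept in room air, and WT-O2 were 4 wild-type mice kept in 85% O2, both from postnatal day 1 to day 14. KO-RA were 3 homozygous GSDMD-KO mice kept in room air and KO-O2 were 3 homozygous GSDMD-KO mice kept in 85% O2 over the same days. The labels give the breed as C57/BL6 and the methods give the GSDMD-KO strain as C57BL/6N. The methods also state that KO and WT pups were littermates from heterozygote matings. The KO allele was made by CRISPR/Cas9 and lacks a stretch of the fifth exon of Gsdmd in the whole animal.

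The libraries held between 27272270 and 28257496 estimated counts, so depth was nearly equal. Gsdmd itself had 41 to 63 counts in WT libraries and 22 to 42 counts in KO libraries, and a gene total cannot separate intact from shortened transcripts. Mouse GSD408, replicate 4 of WT-O2, is hyperoxic by its record's title but room air by the treatment field. It was analysed as WT-O2. Values without it are given beside the members' results in the comparisons that use it, part of the gene lists and the shares of variance of the scores. The fits with covariates were not repeated without it. WT mice carry the numbers GSD398 to GSD408 and KO mice GSD489 to GSD496, no batch is named, and genotype cannot be told apart from that difference in numbering. In bulk tissue, fewer cells of a type and less RNA per cell cannot be told apart. Hippocampal field markers, such as the dentate transcription factor Prox1 and the field CA1 gene Wfs1, were detected in every library. Markers of striatum and thalamus were detected as well, and most WT libraries held more of them than the KO libraries, as given below beside the results they move with.

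Cholesterol is built from acetyl-CoA through mevalonate, isoprenoid units, squalene and lanosterol. When membranes of the endoplasmic reticulum hold little cholesterol, the transcription factor SREBP2 is carried to the Golgi by SCAP, cut free and switches on the enzymes of the pathway. INSIG proteins hold SCAP back when sterols are plentiful. The brain makes its own cholesterol behind the blood-brain barrier, and in the weeks after birth much of it goes into myelin. Among the 7 genes, Hmgcs1 encodes the synthase that makes HMG-CoA, Idi1 the isomerase of isopentenyl diphosphate, and Fdps the synthase of farnesyl diphosphate. Sqle encodes squalene epoxidase and Dhcr7 the reductase that turns 7-dehydrocholesterol into cholesterol. Srebf2 encodes SREBP2 and Insig1 one of the INSIG proteins.

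Because these genes share a regulator, the DNA just before their start sites is shown for the pair with the lowest q in KO-RA vs WT-RA (Insig1 and Hmgcs1), for Idi1, which had the lowest q of the 7 in WT-O2 vs WT-RA, and for the regulator Srebf2. Windows from RefSeq on GRCm38.p6 were held for 5 of the 7 members, with 3 windows for Dhcr7 and 1 for each of the others, and Sqle and Fdps had none. Each line gives the 250 bases before the annotated start, 5′ to 3′ on the + strand, at chr13:119690101-119690350 for Hmgcs1, chr13:8885356-8885605 for Idi1, chr5:28071162-28071411 for Insig1 and chr15:82147019-82147268 for Srebf2. Capitals mark the sterol element core TCACNCCAC and the CCAAT box, in either orientation (ATTGG is CCAAT on the other strand).
Hmgcs1: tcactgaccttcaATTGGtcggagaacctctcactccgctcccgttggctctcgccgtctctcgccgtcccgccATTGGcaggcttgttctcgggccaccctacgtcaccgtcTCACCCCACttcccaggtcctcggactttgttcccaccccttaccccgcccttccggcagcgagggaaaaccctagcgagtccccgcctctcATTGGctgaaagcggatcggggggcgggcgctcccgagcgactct
Idi1: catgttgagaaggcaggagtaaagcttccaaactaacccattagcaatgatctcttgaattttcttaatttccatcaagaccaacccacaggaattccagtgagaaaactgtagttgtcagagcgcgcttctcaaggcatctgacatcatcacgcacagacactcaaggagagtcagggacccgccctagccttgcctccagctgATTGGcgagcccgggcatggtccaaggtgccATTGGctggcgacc
Insig1: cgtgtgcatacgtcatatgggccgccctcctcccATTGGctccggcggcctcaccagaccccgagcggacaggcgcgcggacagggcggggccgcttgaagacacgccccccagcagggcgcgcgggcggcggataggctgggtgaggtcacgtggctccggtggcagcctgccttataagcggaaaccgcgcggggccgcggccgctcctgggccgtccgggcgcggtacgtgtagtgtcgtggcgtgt
Srebf2: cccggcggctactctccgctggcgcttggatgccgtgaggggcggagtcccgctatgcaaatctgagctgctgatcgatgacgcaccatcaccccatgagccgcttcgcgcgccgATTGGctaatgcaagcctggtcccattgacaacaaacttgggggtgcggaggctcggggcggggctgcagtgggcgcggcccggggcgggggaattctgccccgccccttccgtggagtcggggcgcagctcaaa
The sterol element core, the letters bound by SREBP proteins, was found in Hmgcs1 only, where it begins 137 bases before the start. These letters occur in 1.05% of all 32851 windows searched on both strands. No match says only that these letters are not in the window. The CCAAT box, the letters bound by the factor NF-Y, was found in 5 of the 7 windows of the members, with 1 of the 3 windows of Dhcr7 among them, and in 33.8% of all windows. In Hmgcs1 it occurs 3 times, beginning 237, 176 and 45 bases before the start, and in Idi1 it occurs 45 and 14 bases before the start. The sterol element core and the CCAAT boxes of Hmgcs1 do not overlap. The GC box GGGCGG, not marked, was found in 6 of the 7 windows of the members and in 32.7% of all windows. Of 14 other enzymes of the pathway, 13 had a window. Of their 14 windows 0 held the sterol element core, 12 a CCAAT box and 12 a GC box.

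Levels are given as CPM, counts scaled to a common library size with TMM factors. Fold changes are on the log2 scale, from the quasi-likelihood fit of edgeR, and q is the p adjusted by Benjamini-Hochberg for all 16637 tests. To be called, and to be said to have risen or fallen, a gene needed a log2 fold change of at least 0.32 in size, p below 0.05 and q below 0.1. CPM is not divided by transcript length, so levels are compared between groups and not between genes.

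Among the early enzymes, Hmgcs1 stood at 537.3, 530.3, 559.8 and 569.4 CPM in WT-RA and at 514.3, 506.9, 470.1 and 524.8 CPM in WT-O2. In the KO mice it stood at 444.5, 387.8 and 424.5 CPM in KO-RA and at 450.5, 416.2 and 397.5 CPM in KO-O2. The 8 WT libraries thus all lay above the 6 KO libraries, and the WT-O2 mice all lay below the WT-RA mice. Idi1 stood at 98.6, 88.5, 83.1 and 99.1 CPM in WT-RA and at 73.7, 75.5, 71.2 and 70.1 CPM in WT-O2. In the KO mice it stood at 70.4, 61.4 and 74.2 CPM in KO-RA and at 74.5, 60.6 and 54.2 CPM in KO-O2. For this gene the WT-RA mice lay apart from the other 3 groups, which overlapped one another. Fdps stood at 57.1, 56.7, 55.6 and 62.1 CPM in WT-RA and at 47.3, 55.4, 53.4 and 59.8 CPM in WT-O2. It stood at 43.8, 46.8 and 42.7 CPM in KO-RA and at 50.3, 42.9 and 40.5 CPM in KO-O2. The KO-RA mice lay below all WT mice, and the KO-O2 mouse at 50.3 CPM overlapped WT-O2.

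Among the late enzymes, Sqle stood at 105.1, 102.5, 118.3 and 111.1 CPM in WT-RA and at 112.1, 112.1, 101.2 and 106.0 CPM in WT-O2. It stood at 102.8, 93.0 and 92.0 CPM in KO-RA and at 98.1, 94.6 and 89.4 CPM in KO-O2. The KO-RA mouse at 102.8 CPM overlapped the lowest WT-RA mouse. Dhcr7 stood at 66.3, 55.2, 61.9 and 60.4 CPM in WT-RA and at 65.7, 63.4, 57.7 and 56.9 CPM in WT-O2. It stood at 54.6, 50.0 and 49.8 CPM in KO-RA and at 55.3, 54.5 and 50.1 CPM in KO-O2. At both exposures every KO mouse was below every WT mouse for Dhcr7, by less than 2 CPM between the nearest mice.

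Of the regulators, Insig1 stood at 56.9, 55.6, 66.0 and 67.3 CPM in WT-RA and at 53.2, 58.3, 51.0 and 57.0 CPM in WT-O2. It stood at 45.8, 42.3 and 44.2 CPM in KO-RA and at 51.4, 49.0 and 47.8 CPM in KO-O2. KO-RA was the lowest group, with no overlap with any other. Srebf2 stood at 224.1, 227.9, 252.5 and 223.7 CPM in WT-RA and at 224.0, 239.6, 224.2 and 219.6 CPM in WT-O2. It stood at 222.7, 221.1 and 198.4 CPM in KO-RA and at 229.4, 218.9 and 223.9 CPM in KO-O2. The Srebf2 ranges of WT-RA, WT-O2 and KO-O2 overlapped, and KO-RA lay just below WT-RA.

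**Figure D1:**
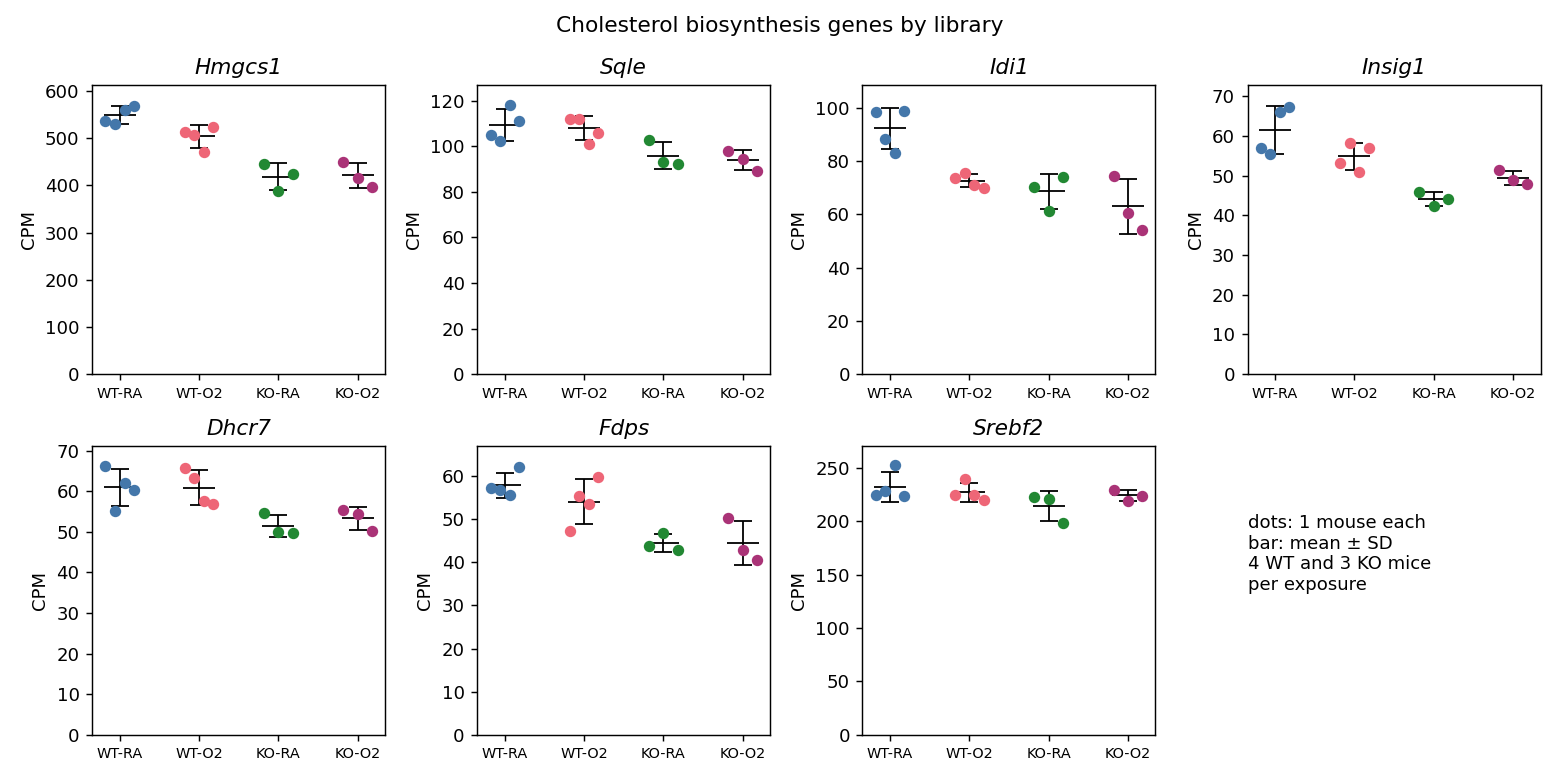
CPM of the 7 members in each library, with 1 dot per mouse and the group mean ± SD as bars (4 mice per WT group and 3 per KO group); each vertical axis starts at 0. Hmgcs1 separates the genotypes, at 470.1 CPM or more in WT and 450.5 CPM or less in KO, and for Srebf2 the group means lie between 214.1 and 232.1 CPM.

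In order of group means, Hmgcs1 went from 549.2 ± 18.5 CPM (SD, n = 4) in WT-RA through 504.0 ± 23.8 (n = 4) in WT-O2 to 421.4 ± 26.9 (n = 3) in KO-O2 and 419.0 ± 28.8 (n = 3) in KO-RA, the last pair not differing beyond its spread. Insig1 went from 61.5 ± 6.1 in WT-RA through 54.9 ± 3.4 in WT-O2 and 49.4 ± 1.8 in KO-O2 to 44.1 ± 1.8 in KO-RA. Idi1 went from 92.3 ± 7.8 in WT-RA through 72.6 ± 2.4 in WT-O2 to 68.7 ± 6.6 (KO-RA) and 63.1 ± 10.4 (KO-O2), the last 3 not separable by their spread. Fdps went from 57.9 ± 2.9 in WT-RA through 54.0 ± 5.2 in WT-O2 to 44.6 ± 5.1 in KO-O2 and 44.5 ± 2.1 in KO-RA. WT-RA had the highest mean for all 7 genes, but for some of them its lead over WT-O2 was within the spread. These were Dhcr7 (60.96 ± 4.61 against 60.93 ± 4.28 CPM), Sqle (109.3 ± 7.0 against 107.8 ± 5.3) and Srebf2 (232.1 ± 13.8 against 226.8 ± 8.7), besides Fdps above.

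The comparison of KO-RA with WT-RA asks what goes with the KO genotype without hyperoxia. Genotype, mouse numbering and the regional marker content of the libraries differ together in it. In room air, 4 of the 7 genes fell in the KO hippocampus and none rose, against 6.70% of all tested genes called lower and 3.75% called higher. Since the 7 were chosen with earlier results of these data known, shares over all genes are given as a description and not as a test. Insig1 fell by 0.48 on the log2 scale (SE 0.08, edgeR q = 0.00131), to 0.718 of its WT-RA level. Idi1 fell by 0.43 (SE 0.10, edgeR q = 0.0132), to 0.744 of its WT-RA level. Hmgcs1 fell by 0.39 (SE 0.07, edgeR q = 0.00192), to 0.763 of its WT-RA level. Fdps fell by 0.38 (SE 0.09, edgeR q = 0.0109), to 0.768 of its WT-RA level. So all 3 early enzymes of the group and 1 of the regulators were called.

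Of the others, Dhcr7 differed by -0.24 (SE 0.07, edgeR q = 0.0470) and Sqle by -0.19 (SE 0.07, edgeR q = 0.0868), both past the q threshold with a fold change short of the limit. Srebf2, the gene of the pathway's activator, differed by -0.12 (95% interval -0.25 to 0.02, edgeR q = 0.271). Thus 6 of 7 members passed q below 0.1 with a lower level, against 8.94% of all genes, and for 6 of 7 (all but Sqle) the KO-RA and WT-RA mice did not overlap, against 11.0% of all genes. The median log2 fold change of the 7 was -0.38, beside -0.01 over all tested genes, of which 51.5% were negative. The same 4 calls were made by DESeq2 and with each mouse left out in turn. With a fold change of 1.5 as the limit 0 of the 7 were called, against 4.09% of all genes called lower at that limit.

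Under hyperoxia (KO-O2 vs WT-O2) the same 7 genes were again all on the lower side in KO mice, with smaller differences for 6 of them, and 0 were called against 4.35% of all genes called lower and 2.51% called higher. At an unadjusted p below 0.05 edgeR counted 4 of the 7, beside 3117 of all 16637 genes, and DESeq2 also called 0. Fdps differed by -0.28 (SE 0.08, edgeR q = 0.0744), Hmgcs1 by -0.26 (SE 0.07, edgeR q = 0.0302) and Sqle by -0.20 (SE 0.07, edgeR q = 0.0962), so 3 of 7 passed q below 0.1, against 5.39% of all genes. The ranges of KO-O2 and WT-O2 did not overlap for 3 of 7 (Hmgcs1, Sqle and Dhcr7), against 10.5% of all genes. Idi1 differed by -0.20 (95% interval -0.42 to 0.02), Dhcr7 by -0.19 (-0.35 to -0.03), Insig1 by -0.15 (-0.32 to 0.02) and Srebf2 by -0.02 (-0.15 to 0.12). The median was -0.20, beside -0.01 over all tested genes, of which 52.1% were negative.

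The count here changed with single mice. Without KO-O2 replicate 1, the mouse with the highest CPM of its group for all 7 genes, Fdps (-0.37, edgeR q = 0.0326) and Idi1 (-0.34, edgeR q = 0.0628) were called, and without WT-O2 replicate 1 Fdps was called (-0.33, edgeR q = 0.0257). Without mouse GSD408 the median was -0.21 and 0 were called, with Hmgcs1 the only member to pass q below 0.1 (-0.23, edgeR q = 0.0859).

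**Figure D2:**
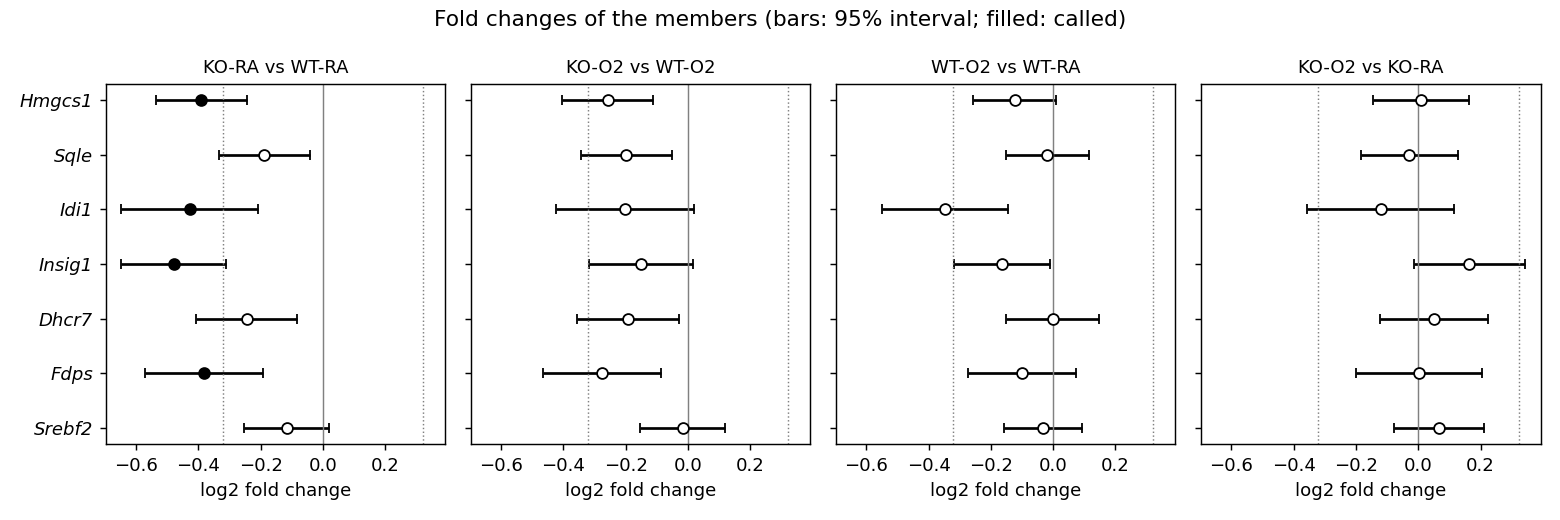
Log2 fold change of the 7 members in the 4 pairwise comparisons, with bars for the 95% interval, filled circles for called genes and dotted lines at a log2 fold change of 0.32 in size. The filled circles (Hmgcs1, Idi1, Insig1 and Fdps) are all in KO-RA vs WT-RA, and the intervals of KO-O2 vs KO-RA all include 0.

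The comparison of WT-O2 with WT-RA asks what hyperoxia goes with in wild-type mice. All 7 genes had a negative log2 fold change in WT-O2, between -0.35 and 0.00 with a median of -0.10, but edgeR called 0 of them, against 0.643% of all genes. The median over all tested genes was -0.01, and 51.7% of them were negative. With 1 mouse left out the median of the 7 ran from -0.14 (without WT-O2 replicate 4, mouse GSD408) to -0.04 (without WT-O2 replicate 1). At an unadjusted p below 0.05 edgeR counted 2 of the 7, Idi1 and Insig1, beside 2027 of all 16637 genes, and DESeq2 called 1, Idi1. The WT-O2 mice lay below all WT-RA mice for 2 of 7 (Idi1 and Hmgcs1), against 3.04% of all genes.

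Idi1 differed by -0.35 (SE 0.09, edgeR q = 0.136), and DESeq2 gave -0.34 with an adjusted p of 0.0251, so that its call depended on the tool. Without mouse GSD408 edgeR called 0 of the 7, and 6 of 7 were negative (Dhcr7 was at 0.03). At an unadjusted p below 0.05 were 3 of the 7, beside 2055 of the 16590 genes then tested. Idi1 then differed by -0.33 (edgeR q = 0.203), Insig1 by -0.18 (edgeR q = 0.346) and Hmgcs1 by -0.14 (edgeR q = 0.390). With this mouse counted as WT-RA Idi1 differed by -0.26 (edgeR q = 0.440). Insig1 differed by -0.16 (95% interval -0.32 to -0.01, edgeR q = 0.353) and Hmgcs1 by -0.12 (-0.26 to 0.01, edgeR q = 0.424). For Sqle the interval of the difference was -0.15 to 0.12, for Dhcr7 -0.15 to 0.15, for Fdps -0.27 to 0.07 and for Srebf2 -0.16 to 0.09. These 4 intervals all lie inside the limit of 0.32 in either direction.

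In KO mice (KO-O2 vs KO-RA) the median difference of the 7 genes was 0.01, beside 0.00 over all tested genes. EdgeR called 0 of the 7, against 0.0120% of all genes, and DESeq2 called 0. At an unadjusted p below 0.05 edgeR counted 0 of the 7, beside 809 of all 16637 genes. The log2 fold changes ran from -0.12 for Idi1 (95% interval -0.36 to 0.11) to 0.16 for Insig1 (-0.02 to 0.34). Insig1 was the only member whose KO-O2 and KO-RA mice did not overlap, with KO-O2 higher, against 5.52% of all genes apart in that direction.

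The interaction asks whether the hyperoxia difference is unlike in the 2 genotypes. EdgeR called 0 of the 7 and 0 of all genes (0%), with 1 of the 7 and 673 of all genes at an unadjusted p below 0.05, and DESeq2 called 0 of all genes. That 1 member was Insig1, whose difference between exposures was 0.33 higher in KO than in WT on the log2 scale (SE 0.11, 95% interval 0.09 to 0.56, edgeR unadjusted p = 0.00773, edgeR q = 1.00). For Insig1 the WT-O2 mice (51.0 to 58.3 CPM) overlapped the WT-RA mice (55.6 to 67.3 CPM), and all 3 KO-RA mice were below all KO-O2 mice. Without mouse GSD408 the Insig1 value was 0.35 (SE 0.11, edgeR q = 0.969), and 0 of the 7 and 0 of all genes were called. For the other 6 members the interaction ran from -0.01 for Sqle to 0.23 for Idi1 (SE 0.14). The comparisons share their groups, so these values are not independent of those above.

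The other enzymes of the pathway were read from a list of 14. In KO-RA vs WT-RA 5 of 14 fell and none rose, against 6.70% of all tested genes called lower and 3.75% called higher. All 14 log2 fold changes were negative with a median of -0.24. For 8 of 14 the KO-RA mice lay below all WT-RA mice, against 11.0% of all genes. Lss, the cyclase that makes lanosterol, fell by 0.59 on the log2 scale (SE 0.09, edgeR q = 0.000866). Acat2 at the first step fell by 0.40 (edgeR q = 0.00510), Mvd, which acts just before Idi1, by 0.37 (edgeR q = 0.0299), Cyp51 by 0.36 (edgeR q = 0.00840) and Ebp by 0.33 (edgeR q = 0.0488). Without WT-RA replicate 4 the count was 3 of 14, with the calls of Cyp51 and Ebp lost. The call of Mvd was lost without WT-RA replicate 3, and that of Ebp also without WT-RA replicate 1 or KO-RA replicate 1 or 2.

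Under hyperoxia 1 of the 14 was called, against 4.35% of all genes called lower and 2.51% called higher. Lss fell by 0.32 in KO-O2 (SE 0.09, edgeR q = 0.0399). The fold change of Lss lay at the limit. The median of the 14 was -0.14 and 13 were negative. DESeq2 called 0 of the 14 there, edgeR called 0 without WT-O2 replicate 2 or 4 or without KO-O2 replicate 2 or 3, and it called 3 without KO-O2 replicate 1. In WT-O2 vs WT-RA edgeR called 0 of the 14 (3 at an unadjusted p below 0.05) and DESeq2 0, with a median of -0.12, and in KO-O2 vs KO-RA both tools called 0 (0 at an unadjusted p below 0.05), with a median of -0.02. Of all 16637 genes, 2027 and 809 had an unadjusted p below 0.05 by edgeR in these comparisons.

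Counted together with the 5 enzymes among the members, 19 enzymes of the pathway from acetyl-CoA to cholesterol were read. In KO-RA vs WT-RA 8 of the 19 were called lower, against 6.70% of all genes, and 19 were negative, with a median of -0.26, which is 16.3% lower. In KO-O2 vs WT-O2 1 was called lower, against 4.35% of all genes, and 18 were negative, with a median of -0.17. In WT-O2 vs WT-RA none was called and 19 were negative, with a median of -0.12, and in KO-O2 vs KO-RA 10 of 19 were negative with a median of 0.00. Without mouse GSD408 none was called and 18 were negative in KO-O2 vs WT-O2 (median -0.14), and none was called and 17 were negative in WT-O2 vs WT-RA (median -0.15).

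**Figure D3:**
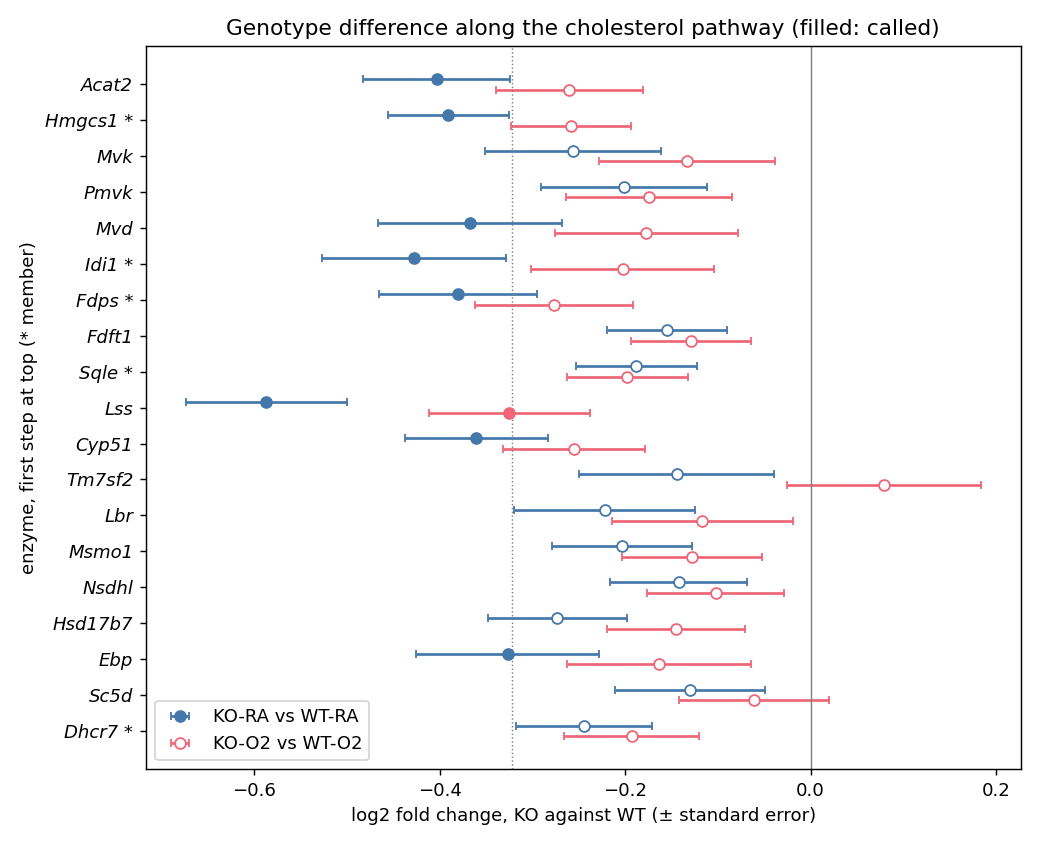
Log2 fold change ± SE of 19 enzymes of cholesterol synthesis in pathway order, KO against WT in room air and in hyperoxia, with filled circles for called genes, stars for members and a dotted line at -0.32. Lss lies farthest to the left at both exposures (-0.59 and -0.32), and Tm7sf2 in hyperoxia is the 1 value above 0.

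Around the synthesis enzymes, 12 genes of sterol sensing and uptake were read beside Srebf2 and Insig1. In KO-RA 1 of the 12 fell and none rose, which is near the 6.70% of all tested genes called lower and 3.75% called higher. Stard4, a carrier of sterol within the cell, fell by 0.38 (SE 0.08, edgeR q = 0.00690). Under hyperoxia Stard4 fell by 0.47 in KO-O2 (SE 0.08, edgeR q = 0.00338) and was again the 1 gene edgeR called, while DESeq2 called 2. Over all genes edgeR called 4.35% lower and 2.51% higher there. Without mouse GSD408 Stard4 stood at -0.44 (edgeR q = 0.0123) and was still the 1 gene called. Insig2, the paralog of Insig1, was not called, and its log2 difference was 0.10 in KO-RA vs WT-RA (95% interval -0.07 to 0.27) and -0.08 in KO-O2 vs WT-O2 (-0.25 to 0.09). The medians of the list were -0.05 in room air and -0.08 in hyperoxia.

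Of 10 genes of cholesterol export and turnover, Cyp46a1, the neuronal 24-hydroxylase, fell by 0.49 in KO-RA (edgeR q = 0.00152) and Lcat, which esterifies cholesterol on lipoproteins, rose by 0.52 (edgeR q = 0.0520), with 0 called in KO-O2 by edgeR (1 at an unadjusted p below 0.05) and 0 by DESeq2. Of 11 genes of fatty acid synthesis, Acly, which supplies cytosolic acetyl-CoA to both pathways, was the 1 gene called, falling at both exposures (fell by 0.37, edgeR q = 0.00337 in KO-RA and fell by 0.38, edgeR q = 0.00407 in KO-O2). Of 8 genes of the isoprenoid branch, which draws on the product of Fdps, Fntb fell by 0.37 in KO-RA (edgeR q = 0.0127) and Pdss1 rose by 0.38 in KO-O2 (edgeR q = 0.0549). Over all tested genes edgeR called 6.70% lower and 3.75% higher in KO-RA vs WT-RA, and 4.35% and 2.51% in KO-O2 vs WT-O2. With so few genes called per list, the counts do not set these lists apart from all genes. Single mice decided several of these calls. Lcat was not called without WT-RA replicate 4 (0.48, edgeR q = 0.114) or KO-RA replicate 1 (0.45, edgeR q = 0.186), nor Fntb without WT-RA replicate 1 (-0.29, edgeR q = 0.0274). Without mouse GSD408 neither Acly (-0.31, edgeR q = 0.00838) nor Pdss1 (0.35, edgeR q = 0.137) was called in KO-O2, and the call of Pdss1 was also lost without WT-O2 replicate 2 or 3 or KO-O2 replicate 1 or 2. The medians of these 3 lists in KO-RA vs WT-RA were 0.05, -0.15 and 0.03, beside the -0.38 of the 7 members. In both hyperoxia comparisons within a genotype, edgeR and DESeq2 called 0 genes of these lists and of sterol sensing and uptake, and at most 3 genes of any of these lists had an unadjusted p below 0.05 in edgeR.

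Markers of myelin and of other brain regions moved with genotype in the same libraries. Beside the counts below, edgeR called 6.70% of all genes lower and 3.75% higher in KO-RA vs WT-RA. In KO-O2 vs WT-O2 these shares were 4.35% and 2.51%. Of all 16637 genes, 3907 and 3117 had an unadjusted p below 0.05 by edgeR in these 2 comparisons. Of 12 genes of myelinating oligodendrocytes, 12 fell in KO-RA (median -1.63) and 7 in KO-O2 (median -1.11), while edgeR and DESeq2 called 0 in WT-O2 vs WT-RA (2 at an unadjusted p below 0.05 by edgeR, median -0.63, 12 negative). Their summed level ran from 8310 to 20900 CPM in WT-RA mice and from 5215 to 13940 CPM in WT-O2 mice, against 3574 to 5749 CPM in KO-RA mice and 3551 to 6254 CPM in KO-O2 mice. Mbp, for example, fell by 1.55 in KO-RA (edgeR q = 0.00904). Of 8 genes listed for oligodendrocyte precursors, 6 fell in KO-RA (Olig1, Olig2, Sox10, Gpr17, Bcas1 and Enpp6). The other 2 were not called. Pdgfra had a mean of 97.2 CPM in WT-RA and 105.8 CPM in KO-RA, and Cspg4 of 44.2 and 39.0 CPM. For this list edgeR and DESeq2 called 0 in KO-O2 (5 at an unadjusted p below 0.05 by edgeR). Of 8 striatal markers, 8 fell in both, with sums of 270.7 to 681.7 CPM over the WT libraries and 64.8 to 166.2 CPM over the KO libraries. Of 7 thalamic markers, 5 fell in each comparison, with sums of 84.5 to 546.9 CPM in WT and 68.3 to 91.4 CPM in KO, and Gbx2 had 0 counts in 1 KO-RA library. Of 9 hippocampal field markers, 8 rose in KO-RA and 5 in KO-O2, with sums of 599.5 to 966.1 CPM in WT and 1243 to 1562 CPM in KO. Among 8 astrocyte markers 2 rose in each comparison, among 9 neuronal markers Camk2a rose and Gad2 fell in each, and edgeR and DESeq2 called 0 of 8 microglial and 0 of 6 endothelial markers, with 0 microglial and 2 endothelial markers at an unadjusted p below 0.05 in KO-RA and 1 of each in KO-O2. Without mouse GSD408, the WT-O2 mouse with the highest myelin score, edgeR called 0 of the 12 myelin genes in KO-O2 vs WT-O2 (11 at an unadjusted p below 0.05, median -0.82) and 0 in WT-O2 vs WT-RA (12 at an unadjusted p below 0.05, median -0.88). In KO-O2 vs WT-O2 8 striatal and 4 thalamic markers then fell, and 5 hippocampal field and 2 astrocyte markers rose.

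The 7 members and the markers were set side by side as scores, the mean standardized log2 CPM per library. Genotype alone took up 76.2% of the variance of the members' score, 60.3% of the myelin score, 89.8% of the striatal score and 80.5% of the hippocampal field score over the 14 libraries. Without mouse GSD408 these shares were 77.2%, 57.9%, 90.0% and 79.6% over 13 libraries. Within every group the mice stood in unlike orders for the members and for myelin. With 3 or 4 mice per group, such orders cannot show whether the scores go together, and that was not tested. WT-RA replicate 3 had the highest score of the members in its group (1.28) and the lowest of myelin (0.12). KO-RA replicate 1 likewise had the highest score of the members in its group (-0.50) and the lowest of myelin (-1.29). KO-O2 replicate 1 had the highest score of its group for both the members (-0.16) and myelin (-0.32). The lowest score of that group was replicate 3 for the members (-1.22) and replicate 2 for myelin (-1.31). In WT-O2 the highest score of the members was that of replicate 2 (0.76) and the highest of myelin that of replicate 4 (1.05).

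**Figure D4:**
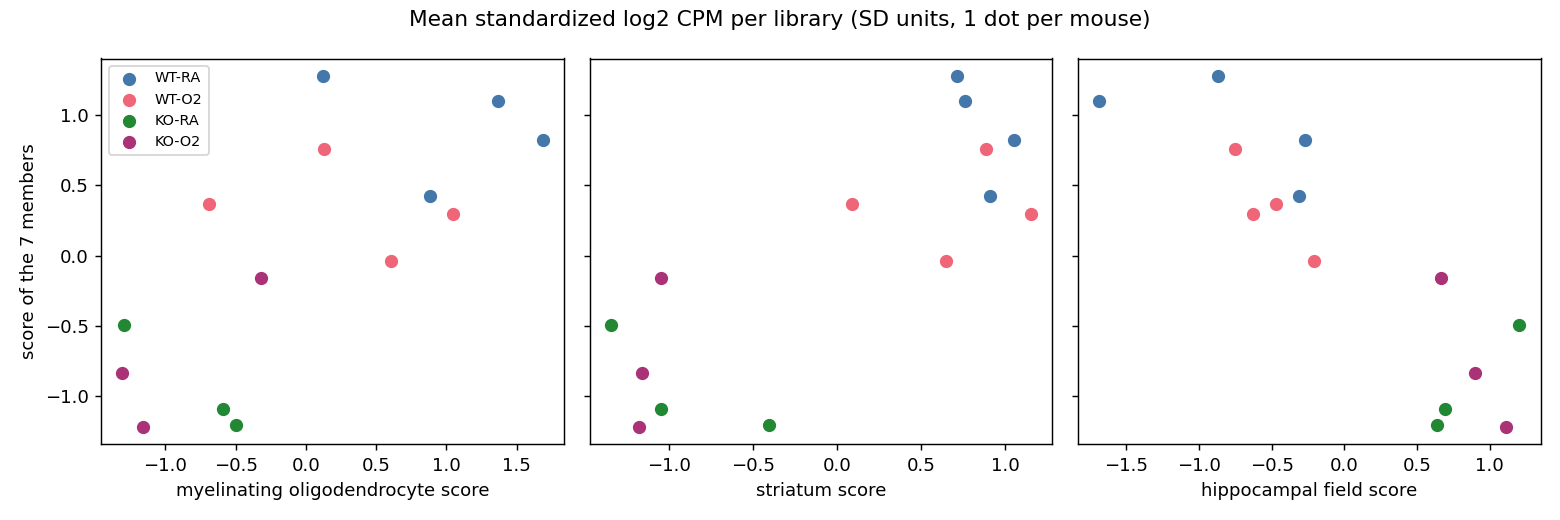
Score of the 7 members against the scores of myelinating oligodendrocyte, striatal and hippocampal field markers, in SD units, with 1 dot per mouse coloured by group. KO and WT mice lie apart on the striatal and hippocampal field axes and overlap on the myelin axis, with the members' score at -0.16 or below in KO and at -0.04 or above in WT.

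With the myelin score as a covariate, 2 of the 7 were called lower in KO-RA vs WT-RA, against 4.18% of all genes. They were Insig1 (-0.50, edgeR q = 0.0246) and Hmgcs1 (-0.40, edgeR q = 0.0343), both about as large as without it. Under the same covariate Fdps was at -0.14 (SE 0.10) and Idi1 at -0.26 (SE 0.14), while Sqle was at -0.30, Dhcr7 at -0.32 and Srebf2 at -0.21, each larger in size than without it. With striatal and thalamic scores as covariates 0 of the 7 and 44 of all genes (0.174% lower) were called by edgeR, with 4 of the 7 at an unadjusted p below 0.05. Here Hmgcs1 was at -0.39 (SE 0.16) and Insig1 at -0.46 (SE 0.16), close to the values without a covariate and with larger errors. Fdps was at -0.10 (SE 0.20) and Idi1 at -0.28 (SE 0.23), both smaller in size than without a covariate. Sqle was at -0.38 (SE 0.14), Dhcr7 at -0.44 (SE 0.17) and Srebf2 at -0.27 (SE 0.14), each larger in size than without one. With the hippocampal field score, chosen after seeing the data, 0 of the 7 and 28 of all genes (0.132% lower) were called, with 1 of the 7 at an unadjusted p below 0.05. Insig1 was then at -0.19 (SE 0.11), Hmgcs1 at -0.28 (SE 0.12), Idi1 at -0.28 (SE 0.18), Fdps at -0.17 (SE 0.15) and Sqle at -0.08 (SE 0.12), each smaller in size. Dhcr7 at -0.25 (SE 0.14) and Srebf2 at -0.12 (SE 0.12) stayed close to their values without it. No covariate fit was made with DESeq2. Since these scores are largely a function of genotype, the share of the difference that goes with the marker content of a library and the share that goes with genotype cannot be told apart here.

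**Figure D5:**
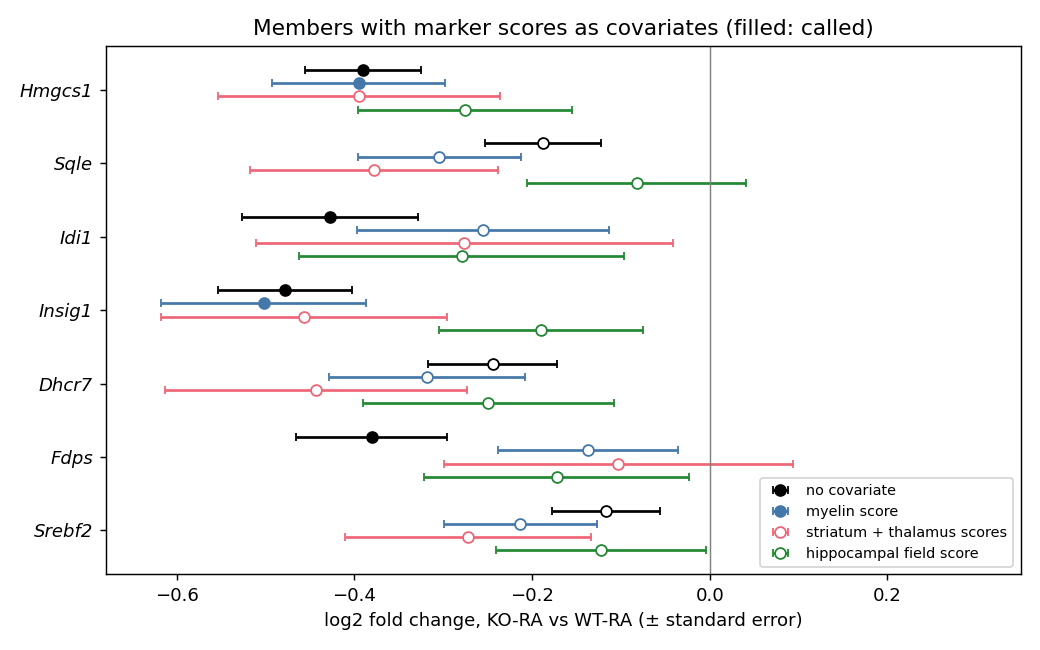
Log2 fold change ± SE of the 7 members in KO-RA vs WT-RA without a covariate and with 3 kinds of marker scores as covariates, with filled circles for called genes. Hmgcs1 and Insig1 keep filled circles with the myelin score, and Fdps goes from -0.38 to between -0.17 and -0.10 with the scores. Dhcr7 and Srebf2 are at least as large in size with each kind of score as without.

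Within groups, the members varied together to unequal degrees. After removal of group means, the Pearson r of a member with the mean of the other 6 over the 14 libraries ran from 0.22 for Fdps and 0.29 for Srebf2 to 0.70 for Hmgcs1 and 0.85 for Sqle. Without mouse GSD408 it ran from 0.31 for Srebf2 to 0.85 for Sqle, with Fdps at 0.33. These r are a description over libraries of nearly equal depth. Regional markers varied within groups, with thalamic sums of 84.5 to 546.9 CPM in WT-RA, and whether r follows that variation was not tested. Of the other 14 enzymes, Acat2 was the most like the members (r = 0.61, rank 203 of 16593 genes). The 10 genes most like the members' mean were Jrk, Hilpda, Eif3j1, Ccn6, Spc25, Dbf4, Bax, Gnb1l, Prmt7 and Zfp619, with r from 0.91 down to 0.82, and none of them is in the pathway lists. Their mean levels ran from 0.27 CPM (Ccn6), 1.79 (Spc25) and 2.31 (Hilpda) up to 49.0 (Eif3j1). Picking the highest of 16593 genes favours high r by itself, and the ranking was not repeated without mouse GSD408. The median r was 0.47 over the 14 enzymes and 0.01 over all genes.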

How the data were processed

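RNA-seq of hippocampus from 14 mice was read from a table of estimated counts per gene. The authors deposited these estimated counts, made with Kallisto on GRCm39 and summed to genes with tximport, and they used DESeq2 for their own tests. Versions and count scaling are not given in the sources used here. The values of each member were not whole in 13 or 14 of the 14 libraries, so that reads shared between transcripts or genes may be divided among them.

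Samples were grouped by title. Counts were rounded, filtered with filterByExpr (16637 genes left), normalized with TMM, and all 14 libraries entered 1 fit in edgeR 4.0.16 (R 4.3.3) with 1 coefficient per group. The F-test was quasi-likelihood, and p was adjusted by Benjamini-Hochberg for all tests. The call rule (fold change 1.25, p below 0.05, q below 0.1) follows the study's methods. Intervals use the standard error and 10 residual degrees of freedom. Replicates are mice. Symbols were found for 35825 of 36118 genes. At these depths each member had at least 1080 counts in every library, a counting CV of at most 3.04% (Fdps). CVs between the mice of a group were 2.35% (Srebf2 in KO-O2, counting CV at most 1.34%) to 16.4%, and 4.74% or more for Fdps. For each member the counting CV was below its smallest CV between mice. It was a large part of that spread for Idi1 (2.63% beside 3.34% in WT-O2) and Insig1 (2.88% beside 3.71% in KO-O2).

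The 7 members, 5 pathway lists and 9 marker lists were chosen with earlier results of these data known. Of the pathway lists, 4 genes are not reported here and were left out of every count and median of the lists, a choice made after the data were seen that did not depend on their values. Named in the text are the members, the called genes of the pathway lists (at most 6 per list and comparison), Insig2, a few markers, and the 10 genes most like the members, where log2 CPM had a prior count of 2. Promoter windows came from RefSeq (GRCm38.p6, not the build of the counts). The alternatives were DESeq2 1.42.0, scaling by its size factors or by library size, no filter or at least 10 counts in every library, the groups compared only, a fold change of 1.5, a q of 0.05, GSD408 as WT-RA, marker scores as covariates, and each mouse left out in turn.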

Additional observations from a re-analysis of the deposited data

Results flagged for a closer look

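One value of the 7 members stood far from the others of its group. Srebf2 in WT-RA replicate 3 was at 252.5 CPM against 223.7 to 227.9 CPM in the other WT-RA mice. The gap to its nearest neighbour was 0.852 of the group's whole range, above Dixon's 95% critical value for 4 samples. The 7 genes were tested in the 2 groups of 4, and chance passes this limit in about 1 of 20 groups. Without this mouse the log2 difference of Srebf2 was 0.01 in WT-O2 vs WT-RA.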

How the results depend on the processing

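In KO-RA vs WT-RA, 4 members were called under each alternative tried except a fold change of 1.5 (0), the myelin score (2), the striatal and thalamic scores (0) and the hippocampal field score (0), the last chosen after seeing the data. That last fit also moved the median of the 7 to -0.19 in KO-RA vs WT-RA and to -0.10 in KO-O2 vs WT-O2. In WT-O2 vs WT-RA DESeq2 called 1 member. In KO-O2 vs WT-O2 leaving out 1 mouse gave 0 to 2 called members. Over all genes DESeq2 called 310 in WT-O2 vs WT-RA and 13 in KO-O2 vs KO-RA, against 107 and 2 in edgeR, and leaving out 1 mouse gave 13 (without WT-O2 replicate 2) to 272 (without WT-RA replicate 1) and 1 to 4. Over all alternatives the calls among all genes ran from 6 to 386 in WT-O2 vs WT-RA, from 28 to 1929 in KO-RA vs WT-RA and from 13 to 1386 in KO-O2 vs WT-O2, the lowest of each genotype comparison with a regional score as covariate. Of the 14 other enzymes 0 to 6 were called in KO-RA vs WT-RA and 0 to 3 in KO-O2 vs WT-O2. The interaction called 0 members under every alternative run. The cause of these changes was not tested.

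Sign changes touched values that were not called, except Lss. Dhcr7 in WT-O2 vs WT-RA, at 0.00, became 0.0018 with DESeq2 or its size factors, 0.0033 without a filter, 0.00061 with at least 10 counts, 0.0028 on the groups compared only and 0.050 with GSD408 as WT-RA, where Insig2 became 0.0072. With library size only, KO-O2 vs KO-RA gave Hmgcs1 -0.00080 and Fdps -0.0067. With striatal and thalamic scores, Insig2 became -0.028 in KO-RA vs WT-RA, and Fdps 0.0076 and Lss 0.24 in KO-O2 vs WT-O2. With the hippocampal field score Insig1 became 0.093 in KO-O2 vs WT-O2. In the interaction Sqle became 0.031 with the myelin score.

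With 1 mouse left out, ranges across 0 in WT-O2 vs WT-RA were -0.044 to 0.046 (Dhcr7), -0.046 to 0.023 (Sqle) and -0.060 to 0.011 (Srebf2). In KO-O2 vs KO-RA they were -0.061 to 0.023 (Sqle), -0.093 to 0.067 (Fdps) and -0.045 to 0.052 (Hmgcs1). Srebf2 ran from -0.035 to 0.0094 in KO-O2 vs WT-O2, and in the interaction Sqle from -0.049 to 0.042. No paired analysis was possible because the labels give no replicate numbers that groups share.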
